A study of Mus musculus with 12 samples.

Results

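Ganglia are supplied by blood vessels, and the cells that line those vessels leave their own transcripts in any preparation from which they have not been fully removed. Described here are 10 genes that mark vascular endothelial cells: Pecam1, Cdh5, Cldn5, Flt1, Kdr, Tek, Emcn, Ly6c1, Ly6a and Slco1a4. They were chosen by symbol as endothelial markers, and all 10 were found among the 22609 genes that each count file lists. The RNA came from dissociated cells of mouse ganglia, either dorsal root (DRG) or trigeminal (TG), after a Percoll density gradient had been used to enrich the sensory neurons. Each ganglion was represented by 3 female and 3 male libraries, giving 12 libraries in 4 groups, all from naïve C57BL wild-type mice (C57BL/6J in the methods) with no treatment and no transgene. The labels give an age of 3 to 4 months, whereas the methods give a younger age, and the methods add that females were in the estrous phase, that DRG were lumbar, and that animals were perfused with phosphate buffer before dissection. The layer of the gradient that held most non-neuronal cells was discarded, so the vessel transcripts counted here are those that remained in the neuronal fraction. No label says how many mice gave a library, or that libraries of a group came from separate animals, so a p-value below measures only the spread between these libraries, which may be technical.

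Endothelial cells form the inner wall of blood vessels and are joined to one another by adherens junctions, built around VE-cadherin, and by tight junctions, built around claudins. Their growth and survival depend on vascular endothelial growth factor (VEGF), which binds receptor tyrosine kinases on their surface, and vessel stability depends on angiopoietins acting on the receptor TEK. In nervous tissue, capillary endothelium also carries transporters that regulate what passes from blood to tissue. In sensory ganglia the capillaries around neuronal cell bodies are known to be more permeable than those of the nerve or the brain.

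Reads assigned to genes ran from 7511765 to 15396090 per library. The smallest level a library could show, taken as 3 counts, was 0.195 to 0.399 CPM (the reads of a gene scaled to a common total of reads in genes, with TMM factors between libraries), and every endothelial gene was far above it, with at least 108 counts in every library. Together the 10 genes took between 0.0383% (95% Wilson interval 0.0372% to 0.0394%) of gene reads, in male DRG 2, and 0.140% (0.137% to 0.142%), in female DRG 1. These intervals cover counting error only. The libraries numbered 3 stood apart from those numbered 1 and 2 in the balance between these genes, as given below, and the labels do not say what the number marks. The tests, medians and correlations of the 10 genes and the counts of the vessel, mural, macrophage and fibroblast lists are therefore also given for the libraries numbered 1 and 2 alone. All 12 sensory neuron markers were detected in every group. Their summed level was 5927 to 11395 CPM per library, against 417 to 1247 CPM for the 10 endothelial genes. The 8 satellite glia markers summed to 2771 to 7227 CPM. In female TG 1 and 2 the glial sums (6154 and 7227 CPM) were above the neuron sums (5953 and 5927 CPM). The lists differ in size and genes, so these sums do not measure how far neurons were enriched.

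Sequences upstream of the start sites were read from RefSeq (mouse build GRCm38.p6, which is not the mm9 build of the counts). The table held 7 of the 10 genes in 8 entries, and the genes it did not hold were Pecam1, Cdh5 and Ly6a. Both strands of the 250 bases before each start were searched for the ETS core CCGGAA and for its variant form AGGAAG. ETS proteins are transcription factors, several of which are active in endothelium. The windows were also searched for AGATAA, a site of another factor family with roles in endothelium. The TATA box was searched for as TATAAA. Shown are the upstream sequences of both VEGF receptor genes and of Emcn and Slco1a4, for which the sexes did not overlap in DRG or in TG and differed in opposite directions, with every match in capitals. Flt1 lies at chr5:147726012-147726261 on the minus strand, Kdr at chr5:75978456-75978705 on the minus strand, Emcn at chr3:137340828-137341077 on the plus strand and Slco1a4 at chr6:141856221-141856470 on the minus strand, and each sequence is written 5′ to 3′ in the direction of transcription.
Flt1: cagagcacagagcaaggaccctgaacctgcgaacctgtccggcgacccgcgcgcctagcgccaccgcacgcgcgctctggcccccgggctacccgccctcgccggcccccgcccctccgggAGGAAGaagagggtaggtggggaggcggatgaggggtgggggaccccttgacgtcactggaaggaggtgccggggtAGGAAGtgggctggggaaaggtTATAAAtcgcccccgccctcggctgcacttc
Kdr: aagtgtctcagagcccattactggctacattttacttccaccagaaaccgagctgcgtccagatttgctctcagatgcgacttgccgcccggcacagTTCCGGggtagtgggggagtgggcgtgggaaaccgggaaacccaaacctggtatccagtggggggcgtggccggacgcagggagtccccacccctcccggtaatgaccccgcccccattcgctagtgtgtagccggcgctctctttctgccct
Emcn: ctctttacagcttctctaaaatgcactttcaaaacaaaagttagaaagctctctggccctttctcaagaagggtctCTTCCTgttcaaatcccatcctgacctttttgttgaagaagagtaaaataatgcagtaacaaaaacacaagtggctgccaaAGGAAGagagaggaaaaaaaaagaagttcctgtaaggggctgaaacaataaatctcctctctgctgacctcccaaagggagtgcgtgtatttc
Slco1a4: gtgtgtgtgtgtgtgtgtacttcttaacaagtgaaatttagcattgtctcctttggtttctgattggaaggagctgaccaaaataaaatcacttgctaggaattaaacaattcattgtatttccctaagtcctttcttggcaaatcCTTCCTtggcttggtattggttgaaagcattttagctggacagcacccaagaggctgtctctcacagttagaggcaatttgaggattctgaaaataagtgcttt
The capitals mark AGGAAG 129 and 53 bases and TATAAA 31 bases before the start of Flt1, CCGGAA on the reverse strand 153 bases before that of Kdr, AGGAAG 93 bases (forward) and 174 bases (reverse) before that of Emcn, and AGGAAG on the reverse strand 104 bases before that of Slco1a4. CCGGAA was present in 12.03% of the 32851 promoters of the table, AGGAAG in 29.5%, and either of them in 38.2%, against 5 of the 8 endothelial entries. TATAAA was present in 12.4% of promoters and in those of Flt1 and Ly6c1. AGATAA was present in 9.99% of promoters and in none of the 8 entries. These are matches of letters in a window and no binding was measured.

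On a scale that allows genes to be compared, RPKM (CPM per kilobase of exon), the surface antigens of the Ly6 family were the most abundant. Ly6c1, a glycosyl-phosphatidylinositol anchored antigen of endothelium and some leukocytes, had 148 ± 74.9 RPKM (mean ± SD, n = 12 libraries). Its neighbour Ly6a (Sca-1), found on capillary endothelium and on progenitor cells, had 131 ± 73.4 RPKM. Both are short genes on chromosome 15 (mm9 74875447 to 74879260 and 74825308 to 74828064, minus strand), with 840 and 819 bases of exon. Ly6c1 has a near-identical copy, Ly6c2, to which 0 to 129 counts per library were assigned, and reads shared by the copies were not counted, so the level of Ly6c1 is uncertain.

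Cldn5, the main claudin of endothelial tight junctions, had 41.9 ± 16.2 RPKM, and Slco1a4, an organic anion transporter of barrier endothelium, had 36.9 ± 10.3 RPKM (n = 12 each). Lower levels were measured for the adhesion molecules Pecam1 (CD31), with 16.4 ± 6.23 RPKM, and Cdh5 (VE-cadherin), with 14.7 ± 8.14 RPKM. The receptor kinases followed, with 10.1 ± 3.12 RPKM for Tek (TIE2, the angiopoietin receptor), 7.88 ± 3.54 for Flt1 (VEGF receptor 1) and 7.41 ± 2.96 for Kdr (VEGF receptor 2). Emcn (endomucin), a sialomucin of capillary and venous endothelium, was the lowest, with 4.89 ± 2.18 RPKM. Ly6c1 and Ly6a, Cldn5 and Slco1a4, Pecam1 and Cdh5, and Flt1 and Kdr were neighbours in that order that differed by less than either SD, whereas Ly6a and Cldn5, and Slco1a4 and Pecam1, were further apart than either SD.

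In mm9, Cldn5 is a gene of 1 exon on chromosome 16 (18776940 to 18778353, plus strand), which makes it the shortest of the 10 over its whole span. The longest is Flt1, on chromosome 5 (148373180 to 148537587, minus strand), with 11583 bases of exon. Kdr lies on the same chromosome (76328852 to 76374483, minus strand). The others are Pecam1 on chromosome 11 (106515531 to 106611942, minus strand), Cdh5 on chromosome 8 (106625525 to 106668402, plus strand), Tek on chromosome 4 (94405980 to 94541667, plus strand), Emcn on chromosome 3 (137004031 to 137095149, plus strand) and Slco1a4 on chromosome 6 (141753961 to 141804720, minus strand). Counts are of reads in exons, and no exon of another annotated gene overlapped those of any of the 10.

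Across the 4 groups the order was alike for most of the genes. Female DRG had the highest mean CPM for 8 of the 10, the others being Flt1, highest in female TG, and Slco1a4, highest in male TG. Male DRG had the lowest mean for all 10. The highest group and the next overlapped in their libraries for all 10 genes (they were apart for 5.48% of all genes tested), the middle groups were apart for 1 (Emcn, against 7.18%), and the lowest was apart from the one above it for 4 (Cldn5, Kdr, Ly6c1 and Slco1a4, against 6.55%). In bulk samples of this kind, fewer endothelial cells and less RNA per endothelial cell cannot be told apart.

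**Figure D1:**
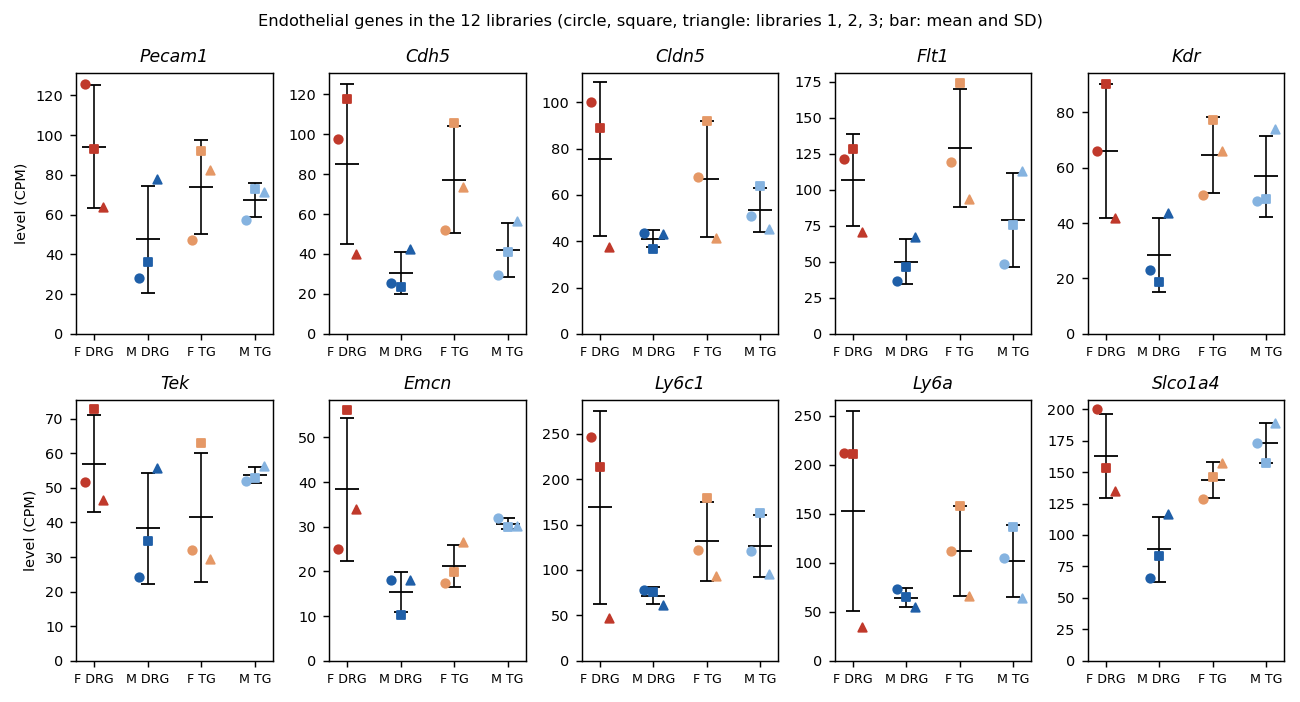
Level of each of the 10 endothelial genes (CPM, linear axis from 0) in the 12 libraries, with circles, squares and triangles for the libraries numbered 1, 2 and 3, and bars for the mean and SD of each group of 3. Male DRG is the lowest group for all 10 genes, and within female DRG the triangle (library 3) is the lowest point for 9 of the 10, Emcn being the exception.

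The first comparison asked whether the sexes differed in DRG. All 10 endothelial genes had a higher mean in female than in male DRG, with log2 fold changes (female over male) from 0.57 to 1.48 and a median of 1.15, beside a median of 0.02 over the 13963 genes tested. By the criteria of the study (fold change above 2, unadjusted p under 0.05 and a mean CPM above 1 in the higher sex), 6 of the 10 were higher in females, namely Cdh5, Flt1, Kdr, Emcn, Ly6c1 and Ly6a, against a background of 2.01% of all genes tested. By unadjusted p alone it was 9 of the 10, all but Tek, against 3.85%. None of the 10 passed an adjusted p of 0.05 in the edgeR quasi-likelihood test (adjusted p from 0.307 to 0.568), which 0.0358% of genes did. DESeq2 gave an adjusted p under 0.05 to Cdh5 (adjusted p = 0.0264) and Flt1 (adjusted p = 0.0498), gave none to Emcn, and called 2.29% of all genes.

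Cdh5 was measured at 97.7, 118 and 40.0 CPM in the female DRG libraries 1, 2 and 3, and at 25.3, 23.5 and 42.4 CPM in the male ones. Females 1 and 2 were thus far above all males, while female 3 lay just below male 3. Its log2 fold change was 1.48 ± 0.42 (SE), a 2.79-fold difference, with an edgeR adjusted p of 0.307.

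Flt1 had 122, 129 and 70.4 CPM in female DRG and 36.5, 46.7 and 67.0 CPM in male DRG. All females were above all males, although female 3 and male 3 were close together. The log2 fold change was 1.09 ± 0.34. Kdr, the receptor that carries most of the mitogenic VEGF signal, had 66.1, 90.3 and 41.8 CPM against 23.1, 18.6 and 43.5 CPM, with the same near-equality of the libraries numbered 3 and a log2 fold change of 1.21 ± 0.40.

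Emcn had 24.98, 56.0 and 34.1 CPM in female DRG against 18.0, 10.1 and 18.0 CPM in male DRG. Every female library was above every male library, and the difference between female 3 and male 3 (0.92 on the log2 scale) was the largest of the 10 genes for that pair. The log2 fold change was 1.31 ± 0.40.

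The Ly6 genes had the widest spread in female DRG. Ly6c1 had 246, 213 and 47.3 CPM in females and 78.3, 75.6 and 60.8 CPM in males. Ly6a had 212, 211 and 34.5 CPM in females and 73.4, 65.2 and 54.4 CPM in males. Female library 3 was below all 3 male libraries for both, and the log2 fold changes of 1.25 ± 0.47 and 1.26 ± 0.51 therefore came from females 1 and 2.

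The remaining genes were below a 2-fold difference. Slco1a4 had 200, 153 and 135 CPM in female DRG and 65.9, 83.0 and 117 CPM in male DRG, without overlap, and a log2 fold change of 0.88 ± 0.31. Pecam1 had 126, 93.0 and 63.8 CPM against 28.3, 36.1 and 78.0 CPM, with overlap (0.98 ± 0.41). Cldn5 had 100.3, 88.9 and 37.7 CPM against 43.5, 36.8 and 43.0 CPM, with overlap (0.89 ± 0.36). Tek, for which the sexes were least apart, had 51.7, 72.9 and 46.6 CPM against 24.3, 34.6 and 55.9 CPM (0.57 ± 0.36). In all, the sexes did not overlap in DRG for 3 of the 10 genes (Flt1, Emcn and Slco1a4), each time with females higher, against 7.85% of genes tested. Among the libraries numbered 1 and 2 it was 10 of 10, against 26.3%.

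The DRG result depended on which libraries entered it. Between libraries of the same number, females were higher for 10 of 10 genes at number 1 (median log2 difference 1.57) and at number 2 (1.48), but for 3 of 10 at number 3 (median −0.14, range −0.66 to 0.92), those 3 being Flt1, Emcn and Slco1a4. With the libraries numbered 1 and 2 alone, 10 of 10 genes met the criteria with a median of 1.62, against a background of 5.20%, and 8 of them passed an edgeR adjusted p of 0.05 (all but Tek and Emcn). Without female DRG 3, 8 genes met the criteria (background 4.66%) and Ly6c1 and Ly6a passed the adjusted p. The backgrounds are for the criteria, and the shares of all genes passing the adjusted p in these 2 fits are not given here. Calls by the criteria rose over all genes as well, to 1774 with the libraries numbered 1 and 2 and 1585 without female DRG 3, from 694. Without female DRG 1, 3 genes met them (Cdh5, Kdr and Emcn, background 1.22%), and without female DRG 2 only Cdh5 did (background 1.51%).

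With the size factors of DESeq2 in edgeR the count in DRG was again 6 of 10. Without TMM factors 9 of 10 met the criteria in DRG against 4.18% of genes, and the median of all genes rose to 0.19 while that of the 10 genes was 1.35. Over all genes, the criteria called 281 as higher in females and 413 as higher in males with TMM factors, and 583 and 165 without. The same numbers in TG were 721 and 317 with them and 1031 and 163 without. With offsets for GC content and length, 8 of 10 met the criteria (background 2.23%), with calls for 311 genes in females and 141 in males, and the log2 fold changes of Ly6c1 and Ly6a became 2.09 and 2.17. All 10 genes stayed higher in females in DRG under each of these settings.

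**Figure D2:**
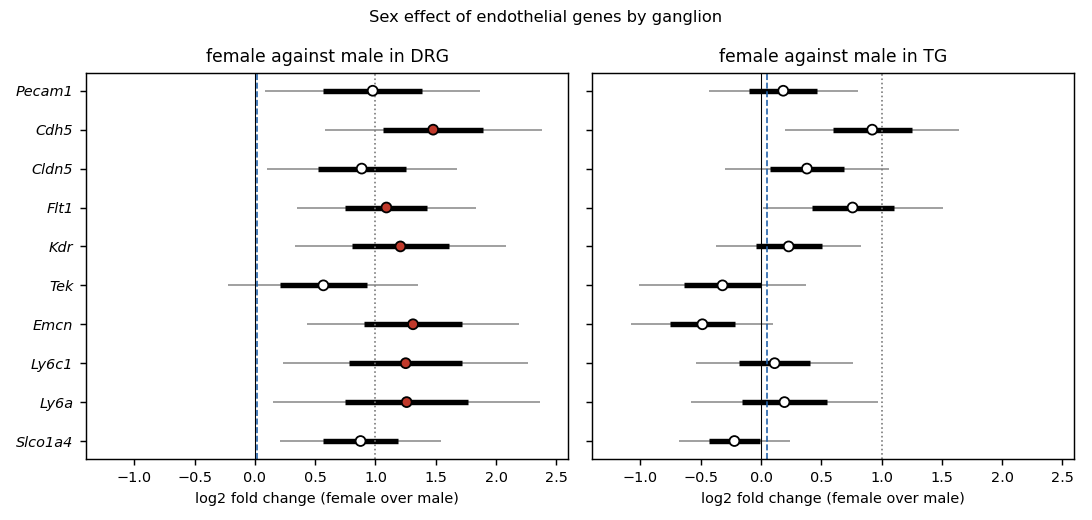
Log2 fold change of female over male for the 10 endothelial genes in DRG (left) and TG (right), with thick bars for the standard error, thin bars for the 95% interval, a dashed line at the median of all genes, a dotted line at a 2-fold difference and filled points for genes that met the criteria of the study. In DRG all 10 points lie right of 0 and 6 are filled, and in TG points lie on both sides of 0 and none is filled.

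In TG the same genes did not form a single direction. Of the 10, 7 had a higher mean in females and 3 (Tek, Emcn and Slco1a4) in males, with a median log2 fold change of 0.19 beside 0.05 over the 14009 genes tested. None met the criteria of the study, which 5.15% of all genes did in the direction of females, and none passed an edgeR adjusted p of 0.05 (0.0357% of genes) or one of DESeq2 (5.38% of genes). By unadjusted p, Cdh5 and Flt1 were higher in females, 2 of 10 against a background of 10.9%. The median was 0.13 with the libraries numbered 1 and 2 alone.

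Cdh5 had 52.3, 106 and 73.6 CPM in female TG and 29.2, 40.8 and 56.3 CPM in male TG. Males 1 and 2 were below every female and male 3 fell between females 1 and 3. The log2 fold change was 0.92 ± 0.33 (95% interval 0.20 to 1.64), with an edgeR adjusted p of 0.180.

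Flt1 had 120, 174 and 93.3 CPM in female TG and 48.5, 75.4 and 113 CPM in male TG, where male 3 was again the highest male and overlapped the females. Its log2 fold change was 0.76 ± 0.34 (95% interval 0.01 to 1.51), with an edgeR adjusted p of 0.236. With the libraries numbered 1 and 2 alone, Cdh5 (1.18) and Flt1 (1.25) met the criteria, 2 of 10 against 13.1% of genes. With Emcn they passed the adjusted p in that fit, for which the share of all genes is not given here. More genes were called at large in that fit, with 3496 meeting the criteria against 1038 with all TG libraries. The calls by adjusted p are therefore not read as particular to these genes.

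Emcn went the other way. It had 17.4, 19.8 and 26.6 CPM in female TG and 32.1, 29.98 and 30.1 CPM in male TG, so that all males were above all females. Its log2 fold change was −0.49 ± 0.27 (95% interval −1.08 to 0.10). Slco1a4 was also without overlap, with 129, 146 and 157 CPM in females and 173, 158 and 189 CPM in males, and a log2 fold change of −0.22 ± 0.21 (95% interval −0.68 to 0.24). These were 2 of 10 genes without overlap and with males higher, against 12.6% of genes, and neither passed the unadjusted threshold. Among the libraries numbered 1 and 2 these 2 genes were again apart with males higher, against 37.2% of genes, and 4 of 10 (Cdh5, Cldn5, Flt1 and Kdr) were apart with females higher, against 36.2%. With the GC and length offsets Slco1a4 was at 0.29 and Emcn at −0.09, so the direction of Slco1a4 in TG changed with that setting.

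The other 6 genes overlapped between the sexes in TG. Ly6c1 had 122, 179 and 93.0 CPM in females and 121, 163 and 95.02 CPM in males, and Ly6a had 112, 158 and 66.2 CPM against 105, 136 and 63.9 CPM. Libraries of the same number were nearly equal between the sexes for both genes, and their log2 fold changes were 0.11 ± 0.30 and 0.19 ± 0.35. With the GC and length offsets that of Ly6c1 was 0.77, with an unadjusted p under the threshold, and that of Ly6a was 1.03 and met the criteria, the only one of the 10 to do so (background 1.39%).

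Pecam1 had 47.1, 91.9 and 82.5 CPM in female TG and 57.5, 72.9 and 71.1 CPM in male TG, and Tek had 31.9, 63.0 and 29.4 CPM against 52.1, 52.8 and 56.3 CPM. Tek varied little among males, while its highest female level was 2.14 times the lowest. Cldn5 (67.7, 91.8 and 41.5 against 50.9, 64.0 and 45.4 CPM) and Kdr (50.1, 77.3 and 65.9 against 47.8, 48.8 and 73.8 CPM) had log2 fold changes of 0.38 ± 0.31 and 0.23 ± 0.27. The 95% intervals of these 4 genes ran from −1.01 (Tek) to 1.06 (Cldn5), so a 2-fold difference lay just inside them for Tek, towards males, and for Cldn5, towards females.

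Whether the sex difference itself was unequal in the 2 ganglia was tested as an interaction in a model of all 12 libraries. For all 10 genes the female over male difference was smaller in TG than in DRG, by 0.39 (Flt1) to 1.85 (Emcn) on the log2 scale, with a median of −0.99 beside 0.00 over all 14829 genes tested. No gene of the 10, and 0% of all genes, passed an adjusted p of 0.05 (edgeR adjusted p = 0.9998 for each of the 10). By unadjusted p, Emcn (−1.85 ± 0.49) and Slco1a4 (−1.14 ± 0.36) passed, 2 of 10 against a background of 0.823% in that direction, and they ranked 2 and 7 of all genes by p. With the libraries numbered 1 and 2 alone, 9 of 10 passed the unadjusted threshold, all but Flt1, against 5.75% of genes, and again none passed the adjusted one. Leaving out 1 library at a time gave 2 to 7 genes by unadjusted p, with 7 without female DRG 3 and 5 without male DRG 3 or without female TG 2. The shares of all genes in these fits are not given here, so these counts cannot be set against a background. That share moved with the libraries used (0.823% with all and 5.75% with those numbered 1 and 2). Differences of opposite sign in the ganglia, DRG females above DRG males and TG males above TG females with no overlap, were seen for Emcn and Slco1a4.

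Averaged over the sexes, all 10 endothelial genes had a log2 fold change of TG over DRG above 0, as 49.0% of all genes did. The sign changed for some of them under other settings. That average joins unlike patterns, since male DRG had the lowest mean for all 10 genes and female DRG the highest for 8. The log2 fold changes of TG over DRG ran from 0.01 (Tek) to 0.48 (Kdr), with a median of 0.14 beside −0.01 over all genes, and none of the 10 passed an adjusted p of 0.05, which 0.964% of genes did. Slco1a4 had a median of 157 CPM in TG (129 to 189, n = 6) and of 126 CPM in DRG (65.9 to 200, n = 6), a log2 fold change of 0.39 ± 0.18 that was the only one with an unadjusted p under 0.05 (1 of 10, background 4.65%). That call was lost in 8 of the 12 fits that left out 1 library. The TG and DRG libraries overlapped for all 10 genes, as they did for all but 1.36% of genes tested. With the libraries numbered 1 and 2 alone, Flt1, Kdr and Slco1a4 had an unadjusted p under 0.05 (background 8.43%), again none passed the adjusted one, and the median was 0.16. For Tek the 95% interval was −0.50 to 0.52, and for Flt1, next to Kdr the gene furthest from 0, it was −0.05 to 0.97.

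Whether the 10 genes moved together was described by the correlation of their log2 CPM over the 12 libraries, which share dissociation, gradient and sequencing and within groups share sex and ganglion. All 45 pairs were positively correlated, with Pearson's r from 0.28 to 0.98 and a median of 0.60, and a median Spearman's rho of 0.59. The median over all pairs of genes tested was 0.01. Over the 8 libraries numbered 1 and 2, the median of the 45 pairs was 0.82 (0.33 to 0.99). After the 4 group means were subtracted the median of the 45 pairs was 0.52 (−0.08 to 0.99), with 40 of 45 pairs above 0, beside 0.01 for all pairs of genes, so libraries of the same group differed from each other in the same direction for most of these genes. Female DRG 1 was the highest of all 12 libraries for 5 genes, female DRG 2 for 4 and female TG 2 for 1. Male DRG 1 and 2 were each the lowest of the 12 for 4 genes, and female DRG 3 was for 2, the Ly6 genes.

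The pairs fell into sets. Ly6c1 and Ly6a had r = 0.98 (rho = 0.95, and r = 0.97 without the 2 libraries furthest from the median), and Cldn5 had r = 0.93 with each of them. The junction gene Cdh5 followed the VEGF receptors, with r = 0.92 for Flt1 (rho = 0.94) and r = 0.88 for Kdr (rho = 0.94). Pecam1 had r = 0.83 with Slco1a4 (rho = 0.57), which became 0.43 without the 2 libraries furthest from the median of Pecam1 and so rested largely on them. Kdr was the gene closest to the mean of the other 9 (r = 0.89), and Emcn was the furthest from it (r = 0.54), with r of 0.28 with Ly6a and 0.69 with Kdr at the extremes.

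**Figure D3:**
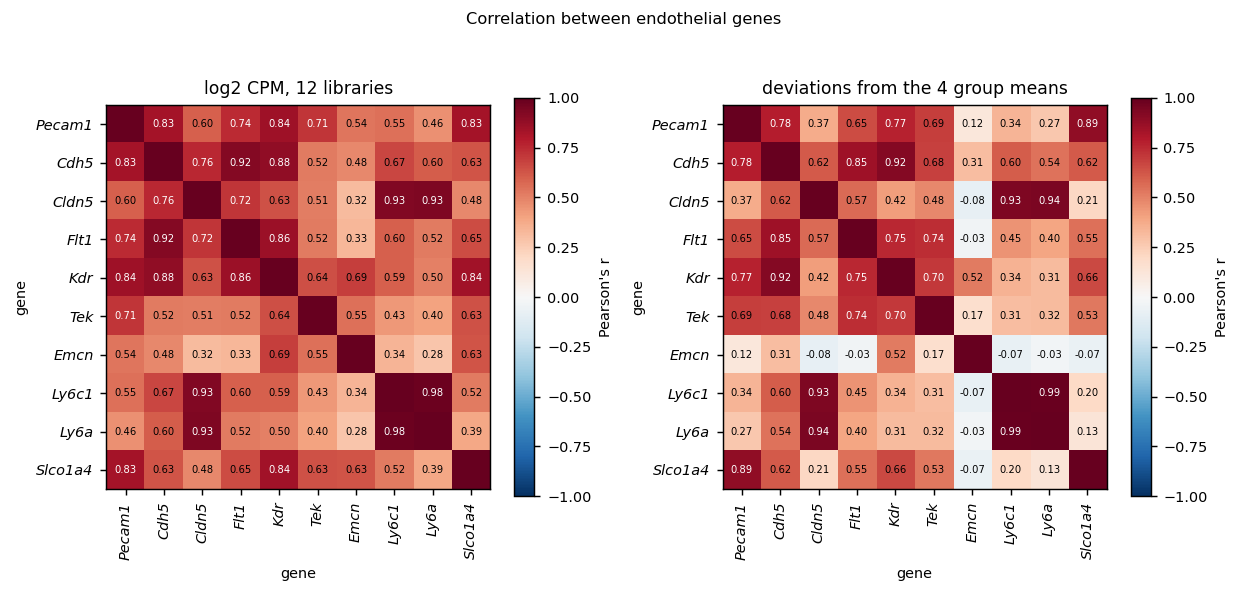
Pearson's r between the 10 endothelial genes over 12 libraries, on log2 CPM (left) and on deviations from the 4 group means (right), with red for positive and blue for negative values. Ly6c1, Ly6a and Cldn5 form a block in both panels, and Emcn is near 0 with 6 of its 9 partners in the right panel (−0.08 to 0.12).

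The block of Ly6 genes differed from the rest in the libraries numbered 3. The ratio of the CPM of Ly6a to that of Pecam1 was 0.54 in female and 0.70 in male DRG 3, 0.80 in female and 0.90 in male TG 3, and 1.68 to 2.59 in the other 8 libraries. There was no overlap, and the number was the same across both sexes and both ganglia. The ratio of Ly6a to Slco1a4 was 0.26 to 0.46 in the libraries numbered 3 and 0.61 to 1.38 in the others. Ly6c1 over Ly6a, by contrast, stayed between 1.01 and 1.49 in all libraries.

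Genes as short as Ly6a and Ly6c1 had a level of their own in some libraries. Over the 1566 genes with under 1500 bases of exon, the median log2 deviation from the mean of the 12 libraries was 0.69 and 0.71 in male DRG 1 and 2, 0.38 and 0.46 in male TG 1 and 2, and −0.28 to −0.08 in the other 8 libraries. The libraries numbered 3 were not set apart from female libraries 1 and 2 by that measure.

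**Figure D4:**
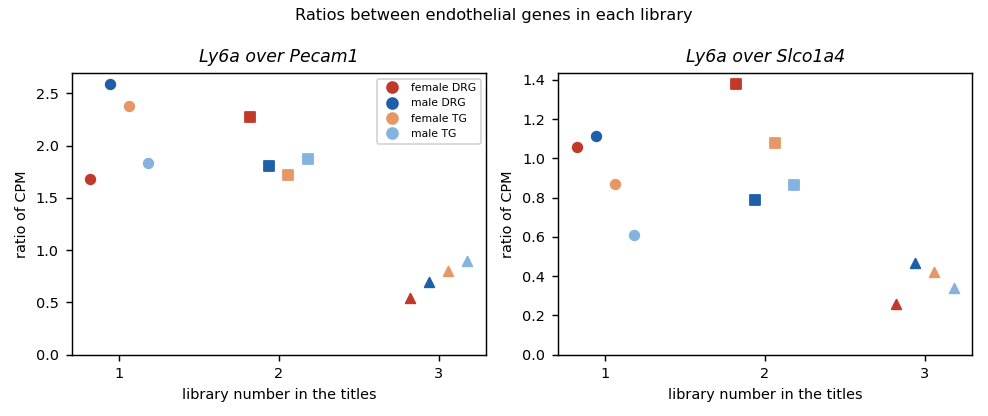
Ratio of the CPM of Ly6a to that of Pecam1 (left) and of Slco1a4 (right) in each of the 12 libraries, by the library number of the titles and coloured by group. In the libraries numbered 3 the ratio to Pecam1 lies between 0.54 and 0.90, below all 8 other libraries, in both sexes and both ganglia.

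Genes whose pattern over the 12 libraries was most like the mean of the 10 were found among 14819 others. They were 9430020K01Rik (Jcad in RefSeq, a protein of endothelial junctions, r = 0.97), Podxl (podocalyxin, r = 0.95), C130074G19Rik (0.94), Mmrn2 (multimerin 2, an endothelial matrix protein, 0.94), Acer2 (alkaline ceramidase 2, 0.92), Itih5 (0.92), Cd93 (0.92), Esam (an endothelial adhesion molecule, 0.91), B230120H23Rik (Map3k20 in RefSeq, 0.91) and Ets1 (an ETS transcription factor, 0.90). Of these, Cd93, Esam and Ets1 were on the lists of endothelial genes described next. Over the 8 libraries numbered 1 and 2 these 10 genes had an r of 0.92 to 0.996, and 3 of them were among the 10 most alike there.

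Other genes of vessels were grouped in 5 lists. Of 16 genes of endothelial junctions and surface, 4 were higher in female DRG by the criteria of the study, 0 were lower and 12 did not meet them. These were Cd93 (1.20 on the log2 scale), Ramp2 (1.36, a receptor activity modifier needed for adrenomedullin signalling), Eng (1.19, endoglin, a TGF-beta co-receptor) and Vwf (1.11, von Willebrand factor). The median of the list was 0.86, lower than that of the 10 genes. In TG 3 were higher in females (Robo4, Vwf and Eng, 1.23 to 1.40) and the median was 0.28.

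Of 13 endothelial transcription factors, Ets1 (1.33) and Erg (1.52), both ETS factors, were higher in female DRG, and Gata2 (2.06) was in female TG. Gata2 was low and overlapped between the sexes, with 2.82, 12.5 and 1.42 CPM in female TG and 1.55, 1.73 and 0.884 CPM in male TG. Its call rested on female TG 2. The list medians were 0.61 in DRG and 0.65 in TG. Of 13 genes of the VEGF and angiopoietin system, Ptprb (1.03, the endothelial phosphatase that opposes TEK) and Tie1 (1.08, the co-receptor of TEK) were higher in female DRG, and Tie1 (1.10) and the ligand Vegfb (1.38) in female TG, with medians of 0.56 and 0.72. Unlike for the 10 genes, these medians of both lists were about as high in TG as in DRG, a difference between lists that was not tested. It depended on the setting. With the libraries numbered 1 and 2 alone the transcription factors had medians of 1.13 in DRG and 0.79 in TG. The VEGF and angiopoietin genes had 0.91 and 0.56. With the GC and length offsets the medians were 0.91 and 0.57, and 0.64 and 0.39. In both settings they were higher in DRG, as for the 10 genes.

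Of the 12 genes of barrier transport tested in DRG, Abcc4 (1.08), Abcb1a (1.23), efflux pumps, and Slc7a5 (1.11, the large neutral amino acid transporter) were higher in females, with a list median of 0.23, and of the 11 tested in TG only Slc7a5 was (1.16), with a median of 0.17. Of 15 arterial, venous and lymphatic genes tested in DRG, Aplnr (1.54, the apelin receptor of veins) and Bmx (1.52, an arterial kinase) were higher in females, and of 16 in TG, Ephb4 (1.22, a venous receptor) and Icam1 (1.82, an adhesion molecule for leukocytes). Icam1 had 11.6, 22.2 and 13.2 CPM in female TG and 0.546, 1.66 and 11.6 CPM in male TG, so male 3 was close to female 1. Prox1, the defining factor of lymphatic endothelium, was at 0 counts in every library of male DRG and of female TG. No gene of these 5 lists was lower in females by the criteria in either ganglion, none passed an edgeR adjusted p of 0.05 in a sex comparison, and none did so for TG against DRG. Without the libraries numbered 3, the genes meeting the criteria as higher in females were 8 of junctions and surface, 3 transcription factors, 3 of the VEGF and angiopoietin system, 3 of barrier transport and 3 arterial, venous and lymphatic genes in DRG, and 4, 4, 4, 1 and 3 in TG, where 1 barrier gene was higher in males. Over all genes the share higher in females rose as well, from 2.01% to 5.20% in DRG and from 5.15% to 13.1% in TG.

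Markers of other cells moved with the endothelial genes in part. Pericytes and smooth muscle cells surround the endothelium, and of their 13 markers tested in DRG all 13 had a log2 fold change above 0, with a median of 0.76, and 4 met the criteria (Vtn, Notch3, Cspg4 and Myh11, 1.29 to 1.54). Their summed level over the 14 genes listed was 333 to 787 CPM in female DRG, 273 to 338 in male DRG, 334 to 570 in female TG and 273 to 395 in male TG. In TG, where the 10 endothelial genes had no common direction, 5 of 12 mural markers tested met the criteria, among them Notch3 (2.47) and Cspg4 (1.81), and the median was 0.91.

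Macrophage markers had a median of 0.69 in DRG, where Csf1r (1.26) and Cx3cr1 (1.51) met the criteria among 10, and of 1.01 in TG, where 4 of 10 did. Their summed level was 169 to 417 CPM in female DRG, 158 to 203 in male DRG, 283 to 544 in female TG and 138 to 297 in male TG. Fibroblast markers had medians of 0.48 and 1.26, with 1 of 10 genes (Col1a1) and 4 of 9 meeting the criteria, and summed levels of 1488 to 2230, 1058 to 1631, 1062 to 1721 and 633 to 1433 CPM in the same order of groups. Dpt was at 0 in female TG. Without the libraries numbered 3, 5 mural, 4 macrophage and 3 fibroblast markers met the criteria as higher in females in DRG, and 7, 7 and 6 in TG. The shares of all genes were 5.20% in DRG and 13.1% in TG, against 2.01% and 5.15% with all libraries.

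Sensory neuron markers moved the opposite way in the female DRG libraries. Their summed level was 6539 and 6987 CPM in female DRG 1 and 2 and 11243 in female DRG 3, against 10211 to 11395 in male DRG. Female DRG 3 was thus like male DRG both in neuron markers and in its endothelial sum (551 CPM, against 417 to 580 in males and 1247 and 1225 in females 1 and 2). In TG the neuron sums were 5927 to 8520 CPM in females and 6730 to 8593 in males. Of the 12 markers, 1 met the criteria as higher in females in DRG, Rbfox3 (1.05), and the list medians were −0.10 in DRG and 0.09 in TG.

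Glial markers differed less between the sexes. The 8 satellite glia markers summed to 2771 to 6135 CPM in female DRG, 3195 to 6066 in male DRG, 4152 to 7227 in female TG and 4298 to 5633 in male TG, and none met the criteria. The 7 markers of myelinating Schwann cells summed to 1800 to 2773, 2185 to 2424, 2068 to 2812 and 1874 to 2551 CPM, with none of 6 tested meeting the criteria in DRG, and 3110035E14Rik was at 0 in all groups but female TG. Blood cell transcripts were scarce: the 8 lymphocyte and neutrophil genes summed to 15.9 to 113 CPM per library, with Cd3e at 0 in female DRG, Cd3g in male DRG and Ms4a1 in both TG groups, and none met the criteria. The 7 erythroid genes summed to 2.80 to 37.3 CPM, with Alas2 lower in female TG (−1.04) and Hbb-b1, Hbb-b2, Hba-a1 and Hba-a2 listed at 0 in every library. Hemoglobin genes have near-identical copies, whose shared reads were not counted, so these zeros say nothing on how much blood remained. The part of the neuronal, mural, macrophage, fibroblast, glial and blood fractions in the sex differences of the endothelial genes was not tested.

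**Figure D5:**
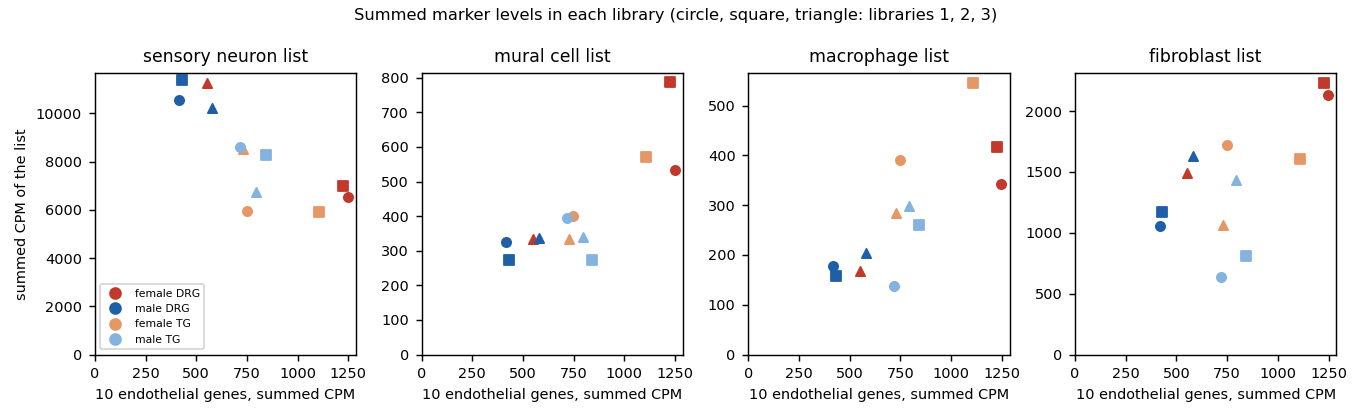
Summed CPM of the sensory neuron, mural cell, macrophage and fibroblast lists (vertical axes, from 0) against the summed CPM of the 10 endothelial genes (horizontal axes) in the 12 libraries, coloured by group. Female DRG 1 and 2, at 1247 and 1225 CPM of endothelial genes, have less of the neuron list than all DRG libraries with lower endothelial sums, and female DRG 3, at 551 CPM, lies among the male DRG libraries in the neuron panel.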

How the data were processed

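RNA-seq libraries from 12 Percoll-enriched sensory neuron fractions were used, 3 from each sex and ganglion, with groups and numbers taken from the sample titles. The authors removed ribosomal RNA, made dUTP stranded libraries, sequenced short single reads on a HiSeq instrument, aligned them to mm9 with TopHat2 and counted them with HTSeq. The deposited values are raw read counts per gene, with no normalization. The counting annotation, its strand setting and tool versions were not given in the sources used here. If strand was ignored, reads of overlapping opposite-strand genes could not be told apart. Reads that align to several places were not counted. Reads outside genes were 37.6% to 50.4% of reads in and outside genes, and with the other summary lines they were left out. That share was 46.4% to 50.4% in female DRG and 38.2% to 42.6% in male DRG, without overlap. In TG the sexes overlapped, with 43.5% to 49.1% in females and 37.6% to 47.9% in males. Its part in the sex differences was not tested.

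Counts were tested with edgeR 4.0.16 in R 4.3.3 (filterByExpr, TMM factors, quasi-likelihood F-test), the sexes within each ganglion and the other contrasts in a model of all 12 libraries, with Benjamini-Hochberg adjustment over all genes tested. The study's own test was DESeq. Lengths and positions were those of GENCODE for that build, which matched 21678 of 22609 genes (95.9%). The study's RPKM criterion was replaced by CPM above 1, and both were run. Log2 CPM used a prior count of 2. The scripts were tested on simulated data.

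Alternatives were DESeq2 1.42.0, its size factors in edgeR, no TMM factors, no low-count filter, a replicate block, GC and length offsets (splines of 5 degrees of freedom), a fold change of 1.5, a prior count of 0.5, the libraries numbered 1 and 2 only and each library left out. The correlations, overlaps and list counts over the libraries numbered 1 and 2 were added after seeing the data. The 10 genes and all marker lists were chosen with earlier results of these data known. Other genes were named when they met the study's criteria in a list, up to 4 per list and comparison by p, or were among the 10 most correlated with the mean of the endothelial genes. Adjusted p-values are edgeR values unless DESeq2 is named. The single-gene calls of the neuron and myelinating Schwann cell lists between the sexes in TG are not reported here.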

Additional observations from a re-analysis of the deposited data

Results flagged for a closer look

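Emcn and Slco1a4 stood out because the sexes were apart in both ganglia but in opposite directions, with every female library above every male library in DRG and every male library above every female library in TG. The sex effect in TG less that in DRG was −1.85 on the log2 scale for Emcn and −1.14 for Slco1a4. The difference was tested as an interaction, and neither passed after adjustment over all genes (edgeR adjusted p = 0.9998 for both). Its cause was not tested.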

How the results depend on the processing

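The library numbers were not taken as pairing the samples, since no label says so and not every pair was above 0.1: the correlation of deviations between same-numbered libraries was 0.113, 0.0317 and 0.168 for the sexes in DRG and −0.0984, 0.00983 and −0.0941 in TG, and for the ganglia 0.0277, 0.117 and 0.212 in females and 0.0430, 0.117 and 0.216 in males. Each female DRG library correlated best with the male one of its number, and between the ganglia those numbered 2 and 3 did so in each sex, but not those numbered 1. With the replicate number as a block, 5 of 10 endothelial genes met the criteria in DRG and 0 in TG, and 8 and 0 with the GC and length offsets as well. Over all genes the block without offsets called 665 of 13963 in DRG and 833 of 14009 in TG, in either direction. By unadjusted p the block gave 6 genes for the interaction (Pecam1, Kdr, Tek, Emcn, Ly6c1 and Slco1a4, background 1.87%) and 3 for TG over DRG (Flt1, Kdr and Slco1a4, background 7.10%). With the offsets as well it gave 7 and 4. The shares of all genes in that fit are not given here, so 7 and 4 cannot be set against a background. None passed the adjusted p in either fit. In TG, where none met the criteria, 1 did with GC and length offsets, against 1.39% of genes as higher in females. Without TMM factors 1 did, against 1031 of 14009 genes as higher in females. At a fold change of 1.5 it was 2, against 2718 of 14009 genes in either direction. The libraries numbered 1 and 2 gave 2 in TG (background 13.1%), and 3 by adjusted p. In DRG those libraries gave 10 (background 5.20%), and 8 by adjusted p. The shares of all genes by adjusted p in those libraries are not given here. DESeq2 gave 2 in DRG by adjusted p (background 2.29%). Leaving out each library in turn gave 1 to 8 genes in DRG (0 to 2 by adjusted p), 0 to 2 in TG, 0 for both other contrasts, and a median r of 0.53 to 0.65, which was 0.82 over the libraries numbered 1 and 2. Left out 1 at a time, female TG 1 gave 1 gene (Cdh5) and male TG 3 gave 2 (Cdh5 and Flt1). Over all genes, the fits that left out 1 library called 377 to 1585 by the criteria in DRG and 585 to 2532 in TG. Over all genes, 694 met the criteria in DRG, against 452 with the offsets, 377 with offsets and block, 1774 with the libraries numbered 1 and 2 and 1645 at a fold change of 1.5. In TG these were 1038 against 296, 267, 3496 and 2718. For TG over DRG, 143 became 333 with DESeq2, 218 without the filter, 562 with the block, 513 with block and offsets and 814 with the libraries numbered 1 and 2.

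These log2 differences changed sign. In TG the sex difference of Cldn5 was −0.0058 with GC and length offsets and −0.015 with the block added, and that of Slco1a4 was 0.29 in each. For TG over DRG, Pecam1 was −0.033 and Cldn5 −0.050 with these offsets, and Tek was −0.0257 with DESeq2, −0.0257 with its size factors, −0.046 with the offsets and −0.047 with the block added. Without single libraries the sex difference in TG ran from −0.051 to 0.38 for Pecam1, from −0.23 to 0.33 for Ly6c1 and from −0.19 to 0.46 for Ly6a. TG over DRG ran from −0.057 to 0.36 for Pecam1, −0.0048 to 0.32 for Cdh5, −0.057 to 0.23 for Cldn5, −0.20 to 0.20 for Tek, −0.044 to 0.26 for Emcn and −0.13 to 0.27 for Ly6a. The interaction of Flt1 ran from −0.66 to 0.011. The cause was not tested. In DRG all 10 genes kept females higher under every alternative. No endothelial gene was near the count floor, at 108 counts or more. With 3 libraries per group, the spread between libraries set the intervals.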
